A study of Homo sapiens with 3 samples.

Results

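The core and linker histone genes were examined in HCT116 cells, an established human colon cancer cell line, after silencing of *HOXA5* short RNA. A gene was included if the transcript accession of a probe on the array led to a current symbol beginning with H1-, H2AC, H2BC, H3C or H4C and a number. This gave 83 probes of 73 genes, out of 21612 genes named through an accession. Of the 73 genes, 58 had a probe that passed the filters, out of 12031 genes in all. The cells received control siRNA, siRNA #7 or siRNA #8 for 48 h. The siRNAs are named here by the titles of the samples, and the deposited files number them differently. The control siRNA is a negative control, and siRNA #7 and siRNA #8 were both designed against *HOXA5* short RNA, a transcript of the *HOXA6*-*HOXA5* locus, in otherwise unmodified cells. From each culture, 400 ng of total RNA was labeled with 1 dye (Cy3) and hybridized to 1 whole human genome array. With 1 array per condition no difference between 2 arrays had a replicate check or a test, and the number of arrays limits the precision.

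Histones are the proteins that package DNA. Histones H2A, H2B, H3 and H4 form the core of the nucleosome, and the linker histone H1 binds where DNA enters and leaves it. Most of these genes lie in clusters, the largest on chromosome 6, where many H2A and H2B genes stand head to head and share a promoter region. They are transcribed mainly in S phase, when new DNA must be packaged. Their mRNAs typically end in a stem-loop bound by SLBP instead of a poly(A) tail. The H1 gene *H1-10* is an exception that lies apart from the clusters and is also expressed outside S phase. The labeling kit primes on poly(A) tails, so the signal of a histone gene depends on how much of its mRNA the primer reached, which was not tested. Copies within a core histone class are nearly identical in sequence, so a probe may also have read other copies, and values of single genes are uncertain to that extent.

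Most but not all promoters carried the elements for which the 5 classes are known, and 6 promoters are shown. For each class the gene with the lowest ratio of siRNA #8 to control siRNA was taken among genes with 1 start in the table. *H2BC12*, which has 2 starts in the table, was added as the gene with the highest ratio. Each sequence covers the 150 bases before the gene start, 5′ to 3′ on the strand of the gene, from RefSeq on GRCh38.p14. Capitals mark the motifs searched on both strands: the TATA box (TATAAA), the CCAAT box (CCAAT), the octamer bound by POU2F1 (ATTTGCAT), the H1 box (AAACACA) and the H4 element (GGTCCG). The promoters lie at chr6:26156179-26156328 on the plus strand (*H1-4*), chr6:26124022-26124171 on the plus strand (*H2AC6*), chr1:228457953-228458102 on the plus strand (*H2BC26*), chr6:26250636-26250785 on the minus strand (*H3C7*), chr6:26027284-26027433 on the minus strand (*H4C2*) and chr6:27146859-27147008 on the minus strand (*H2BC12*).
H1-4: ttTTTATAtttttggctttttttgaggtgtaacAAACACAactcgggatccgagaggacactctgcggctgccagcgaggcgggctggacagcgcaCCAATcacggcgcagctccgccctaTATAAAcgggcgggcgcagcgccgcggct
H2AC6: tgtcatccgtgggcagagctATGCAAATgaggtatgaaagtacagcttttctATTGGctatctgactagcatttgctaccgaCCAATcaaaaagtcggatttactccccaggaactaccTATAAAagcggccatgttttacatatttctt
H2BC26: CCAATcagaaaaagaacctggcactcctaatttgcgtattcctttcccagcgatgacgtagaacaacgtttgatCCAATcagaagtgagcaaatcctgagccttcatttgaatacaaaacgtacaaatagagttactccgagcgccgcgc
H3C7: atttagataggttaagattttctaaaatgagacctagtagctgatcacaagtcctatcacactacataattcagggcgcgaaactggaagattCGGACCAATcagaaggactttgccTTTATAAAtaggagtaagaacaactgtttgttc
H4C2: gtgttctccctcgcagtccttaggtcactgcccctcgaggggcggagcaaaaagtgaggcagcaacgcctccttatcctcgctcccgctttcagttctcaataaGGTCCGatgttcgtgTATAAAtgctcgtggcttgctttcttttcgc
H2BC12: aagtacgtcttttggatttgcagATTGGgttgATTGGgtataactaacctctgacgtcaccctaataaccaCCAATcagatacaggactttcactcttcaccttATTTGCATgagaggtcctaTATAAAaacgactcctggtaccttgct
In *H3C7* the reverse H4 element and the CCAAT box overlap. The sequence shown for *H2BC26* holds neither the octamer nor TATAAA.

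A promoter, taken as 250 bases before to 50 after a start, was in the table for 64 of the 73 genes. The CCAAT box stood in 15 of 15 H2A, 18 of 18 H2B, 10 of 10 H3 and 8 of 9 H1 genes, but in 3 of 12 H4 genes, against 34.6% of all 35116 promoters. The octamer was present in 11 of 15 H2A and 14 of 18 H2B genes and in 1 other histone gene, against 1.77% of all promoters. Since head-to-head H2A and H2B genes share the region between them, these counts overlap. The H1 box was found in 7 of 9 H1 genes, against 5.64% of all promoters. The H4 element was found in 11 of 12 H4 genes, against 11.3%. TATAAA was found in 42 of 64 genes, against 4049 of all 35116 promoters. A match of letters is a description and not a binding site.

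The histone genes were lower with siRNA #8 than on either other array, while siRNA #7 and control siRNA differed little in the median. Levels are given as scaled intensity, the spot intensity divided by the 75th percentile of its array, and ratios on the log2 scale. Over the 58 genes the log2 ratio had a median of -0.57 for siRNA #8 over control siRNA, -0.74 for siRNA #8 over siRNA #7 and 0.02 for siRNA #7 over control siRNA. Over all 12031 genes the medians were 0.01, -0.01 and 0.02. Each array enters 2 of the 3 ratios, so they are not independent. In RNA from whole cultures, a lower share of cells that express a gene and less RNA per cell cannot be told apart.

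With siRNA #8 over control siRNA, 54 of 58 histone genes had a log2 ratio below 0, against 49.2% of all genes, and 17 were at least 2-fold lower, against 3.03% of all genes. No histone gene was at least 2-fold higher, against 1.95%. With siRNA #8 over siRNA #7, 53 of 58 were below 0, against 51.2% of all genes, 17 were at least 2-fold lower, against 3.37%, and none was at least 2-fold higher, against 2.27%. The count of 17 over siRNA #7 was 10 with scaling on spike-in controls and 8 with normexp background correction, against 2.56% and 0.939% of all genes. With siRNA #7 over control siRNA, 25 of 58 were below 0, against 48.3% of all genes, 1 was at least 2-fold lower, against 1.72%, and 1 was at least 2-fold higher, against 2.05%. The number below 0 with siRNA #7 was 48 of 58 when the arrays were scaled on spike-in controls, which lowered the median of all genes as well. The spot-to-spot SD of a ratio, taken from probes printed 10 times on each array, had a median of 0.17 over the histone genes for siRNA #8 over control siRNA and reached 0.41 for the dimmest. By more than 2 of these SDs, 38 of 58 genes were lower and 1 was higher with siRNA #8 than with control siRNA, against 16.8% and 14.5% of all genes. With siRNA #7 over control siRNA 9 were lower and 9 higher, against 14.6% and 15.2% of all genes. This SD covers the spread between spots of 1 array and not that between cultures. Of the class medians given next, those of H1, H2B, H3 and H4 for siRNA #7 over control siRNA changed sign under at least 1 of 6 scalings and corrections, while none for siRNA #8 over either array did.

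**Figure D1:**
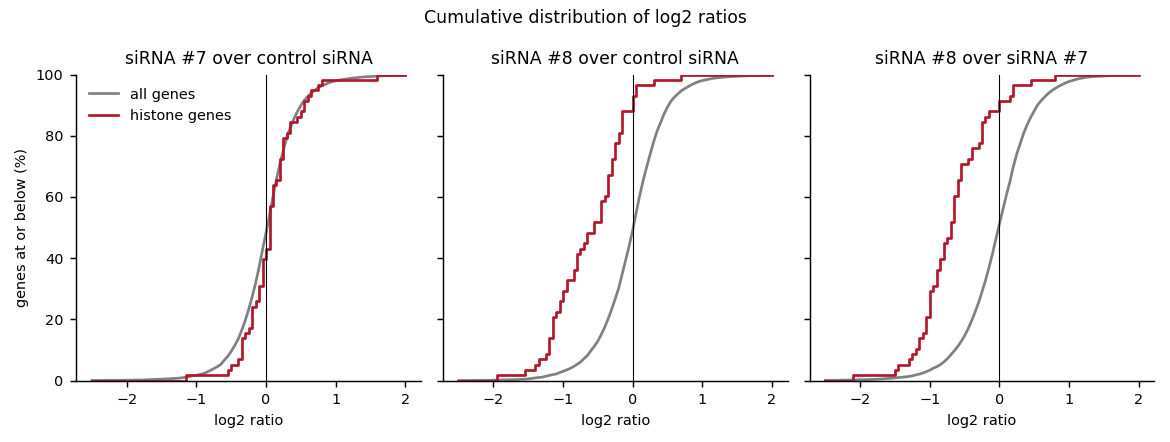
Cumulative share of genes (%) at or below each log2 ratio, for 58 histone genes (red) and all 12031 genes (grey), 1 panel per pair of arrays. The red curve lies to the left of the grey curve in both panels with siRNA #8, where 54 and 53 of 58 genes were below 0, and not in the panel of siRNA #7 over control siRNA.

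The H4 genes encode the core histone that pairs with H3, and 12 of them passed. Their median log2 ratio was -0.59 for siRNA #8 over control siRNA, -0.75 for siRNA #8 over siRNA #7 and 0.08 for siRNA #7 over control siRNA, and 12 of 12 were below 0 with siRNA #8 over control siRNA. *H4C2* had a scaled intensity of 123 (control siRNA), 136 (siRNA #7) and 31.5 (siRNA #8). It was 3.92-fold lower with siRNA #8 than with control siRNA and 4.32-fold lower than with siRNA #7, the lowest ratios among the histone genes. Next in this class came *H4C8*, at 6.45, 7.58 and 2.64 on the control siRNA, siRNA #7 and siRNA #8 arrays. Both genes were low on the siRNA #8 array and close together on the other arrays. *H4C1* stood at 12.2, 11.2 and 5.69 in the same order, a log2 ratio of -1.10 for siRNA #8 over control siRNA, against -0.52 by its second probe. *H4C4* stood at 20.3, 20.5 and 10.2, just past 2-fold lower with siRNA #8 than with siRNA #7. Copies of H4 encode the same protein, but their probes did not move by the same amount. *H4C3*, with the signal farthest above background, was at 686, 806 and 571, a log2 ratio of -0.26 for siRNA #8 over control siRNA. *H4C12* was at 37.9, 29.9 and 29.5, lower with both siRNAs, but its second probe, at 9.48, 9.89 and 9.03, was not lower by more than the spot-to-spot SD with either.

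The H3 genes gave the lowest class median with siRNA #8. Their 11 genes had a median log2 ratio of -0.85 for siRNA #8 over control siRNA, -0.88 for siRNA #8 over siRNA #7 and 0.08 for siRNA #7 over control siRNA. Of these genes 4 were at least 2-fold lower with siRNA #8 than with control siRNA: *H3C4*, *H3C7*, *H3C2* and *H3C12*. *H3C4* had a scaled intensity of 77.6 (control siRNA), 70.8 (siRNA #7) and 33.1 (siRNA #8). *H3C7* was at 26.1, 27.6 and 11.4, and *H3C2* at 52.6, 53.9 and 23.8. In each of the 3 genes the control siRNA and siRNA #7 arrays lay together and the siRNA #8 array below them. *H3C12* was dimmer, with a log2 ratio of -1.07 for siRNA #8 over control siRNA and of 0.03 for siRNA #7 over control siRNA. *H3C10* was 2.05-fold lower with siRNA #8 than with siRNA #7, with 14.1, 16.1 and 7.82. *H3C13*, the H3 gene farthest above background, was at 102, 114 and 62.6. *H3C6* had the ratio closest to 0 in this class, -0.03 for siRNA #8 over control siRNA.

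Among the H2A genes, 14 passed, and the median log2 ratio was -0.83 for siRNA #8 over control siRNA, -0.77 for siRNA #8 over siRNA #7 and -0.07 for siRNA #7 over control siRNA. At least 2-fold lower with siRNA #8 than with control siRNA were 6 of 14: *H2AC6*, *H2AC21*, *H2AC14*, *H2AC13*, *H2AC15* and *H2AC11*. *H2AC6* had a scaled intensity of 6.50 (control siRNA), 5.09 (siRNA #7) and 2.20 (siRNA #8), a 2.96-fold difference between the first and the last. *H2AC14* was at 113, 97.8 and 48.1, and *H2AC15* at 87.7, 82.1 and 39.5. *H2AC21*, at the end of the chromosome 1 cluster, was at 15.9, 11.8 and 6.75. In these genes siRNA #8 was the lowest array by a wide margin and siRNA #7 lay slightly below control siRNA. *H2AC13* was at 5.32, 4.71 and 2.35. *H2AC11* differed from the rest, at 12.5, 5.50 and 6.06, low on both siRNA arrays. It was the 1 histone gene at least 2-fold lower with siRNA #7 than with control siRNA, with a log2 ratio of -1.19, but this ratio was -0.27 once the median deviation of the neighbouring spots was removed. *H2AC19* had the 1 H2A ratio above 0 for siRNA #8 over control siRNA, at 0.04 with a spot-to-spot SD of 0.26.

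The H2B genes gave the class median closest to 0. Over 16 genes it was -0.30 for siRNA #8 over control siRNA, -0.37 for siRNA #8 over siRNA #7 and 0.02 for siRNA #7 over control siRNA, and 3 genes were at least 2-fold lower with siRNA #8 than with control siRNA. *H2BC26* was at 1.66, 1.43 and 0.630 on the control siRNA, siRNA #7 and siRNA #8 arrays. *H2BC7* was at 5.11, 4.24 and 2.26, and *H2BC11* at 5.23, 5.48 and 2.58. In these 3 genes the siRNA #8 array was lowest. *H2BC13*, farthest above background in its class, was at 31.0, 30.5 and 25.1, with the arrays closer together. *H2BC14* was at 4.72 (control siRNA), 13.8 (siRNA #7) and 5.61 (siRNA #8). It was the 1 histone gene at least 2-fold higher with siRNA #7 than with control siRNA, by 1.55 on the log2 scale, and its siRNA #8 and control siRNA levels were close. *H2BC12* was at 8.52, 8.06 and 13.8, a log2 ratio of 0.69 for siRNA #8 over control siRNA, the 1 histone gene higher by more than 2 spot-to-spot SDs. Its second probe gave 8.69, 10.4 and 8.86, a ratio of 0.03. The higher level of *H2BC12* with siRNA #8 was therefore seen with 1 of 2 probes.

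The linker histone genes were few, with 5 passing. All 5 were below 0 with siRNA #8 over control siRNA, at a median of -0.82. That count takes no account of the size of a ratio. With siRNA #8 over siRNA #7 all 5 were at least 1.5-fold lower, against 1397 of all 12031 genes, at a median of -0.63. Of these *H1-3* was only just past 1.5-fold, at -0.59, and reached -0.11 under another scaling or correction. *H1-2*, at -0.63, reached -0.38, so the count of 5 depended on the processing. For siRNA #7 over control siRNA the class median was 0.18, with 2 of 5 at least 1.5-fold higher, against 914 of all 12031 genes. *H1-4*, a replication-dependent linker histone, was at 16.9 (control siRNA), 13.1 (siRNA #7) and 6.39 (siRNA #8), and was the 1 linker gene at least 2-fold lower with siRNA #8 than with control siRNA. *H1-2* was at 58.6, 66.4 and 42.9. *H1-10* was at 3.58, 5.57 and 2.02, higher than control siRNA with siRNA #7 by 0.64 and lower with siRNA #8 by a log2 ratio of -0.83. Against siRNA #7 it was 2.76-fold lower with siRNA #8.

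**Figure D2:**
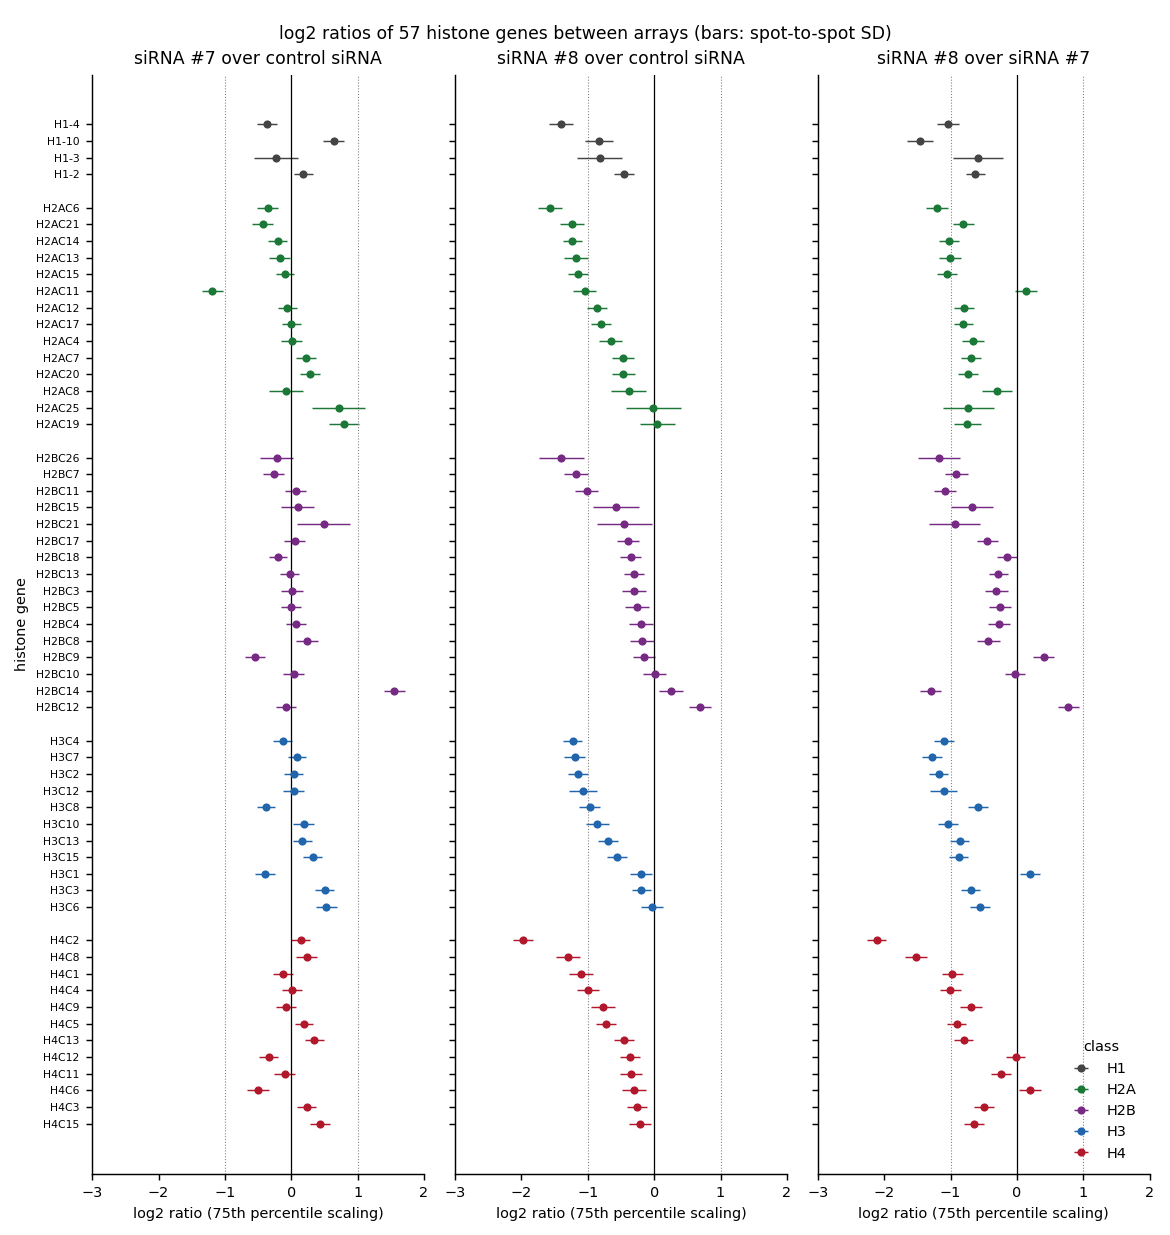
Log2 ratios of 57 histone genes (rows, grouped by class and ordered by the ratio of siRNA #8 to control siRNA) for the 3 pairs of arrays. Points are the brightest passing probe of a gene, bars are the spot-to-spot SD, and dotted lines mark 2-fold. Points lie to the left of 0 for 53 genes in the middle panel and for 52 in the right panel, and on both sides of 0 in the left panel, where *H2AC11* and *H2BC14* are past 2-fold.

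**Figure D3:**
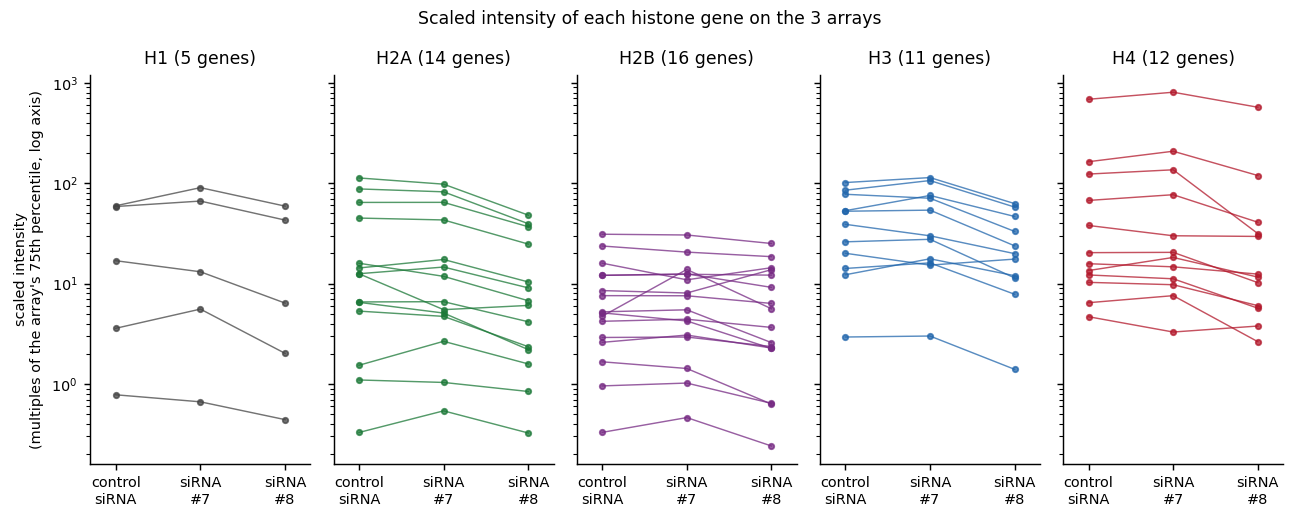
Scaled intensity (log axis, multiples of the 75th percentile of the array) of each of the 58 histone genes on the 3 arrays, 1 panel per class and 1 line per gene. From control siRNA to siRNA #7 lines go both up and down, past 2-fold for *H2AC11* and *H2BC14* alone. From siRNA #7 to siRNA #8 they mostly fall, most steeply for *H4C2* (136 to 31.5). Heights of different genes come from different probes and are not to be compared.

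A second passing probe was available for 9 genes. For siRNA #8 over control siRNA both probes had the same sign in 9 of 9 genes, below 0 in 8 and above 0 in *H2BC12*, but they differed in size by up to 0.71. The *H2AC6* probes gave -1.56 and -0.86, and the *H4C13* probes -0.46 and -1.16. The *H4C4* probes lay closest, at -0.99 and -0.97. For siRNA #7 over control siRNA the probes had the same sign in 3 of 9 genes. Opposite signs there were seen for *H2AC17*, *H2BC12*, *H2BC18*, *H4C1*, *H4C12* and *H4C13*, with gaps of 0.18 to 0.48. A gap is a difference of 2 ratios, so its spread between spots is larger than the spot-to-spot SD of 1 ratio. Whether the gaps exceed that spread was not tested.

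The remaining 15 genes had no passing probe, and 13 of them were not well above background on any array. They included *H1-1*, *H1-5*, *H2AC16*, *H2BC6*, *H3C11* and *H4C7* of the chromosome 6 clusters, the germ cell genes *H1-6*, *H1-7*, *H1-8*, *H2AC1* and *H2BC1*, the antisense RNA *H1-10-AS1*, the pseudogenes *H1-9P* and *H2AC2P*, and *H4C16* on chromosome 12. *H4C16* was detected above background at 0.239 (control siRNA) and 0.263 (siRNA #7), and on the siRNA #8 array it was not well above background. Its siRNA #8 level was at least 1.61-fold lower than the siRNA #7 level and at least 1.47-fold lower than the control level. These bounds leave out the spot-to-spot SD, which for this dim probe was 0.38 and 0.41 on the log2 scale, so they are not firm limits. *H1-7* was just above background on the control siRNA array alone, at 0.161. Of 93 symbols in the RefSeq table that fit the names, 20 had no probe, of which 4 were protein-coding (*H2AC18*, *H2BC12L*, *H3C14* and *H4C14*).

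By the median, the lower levels with siRNA #8 were seen in each run with at least 5 passing histone genes. Runs are histone genes that follow each other on a chromosome, named by their first and last member. On chromosome 6, the run from *H2AC1* to *H4C8* had 28 passing genes and a median log2 ratio of -0.56 for siRNA #8 over control siRNA, with 27 of 28 below 0. The run from *H2BC13* to *H2BC17* had a median of -0.58, with 12 of 13 below 0, and the short run from *H2BC11* to *H2AC12* a median of -0.86, with 4 of 5 below 0. The chromosome 1 run from *H2BC18* to *H2AC21* had a median of -0.46, with 7 of 8 below 0. For siRNA #7 over control siRNA these runs had medians of 0.01, 0.00, -0.08 and 0.30 in that order. For siRNA #8 over siRNA #7 the medians were -0.65, -0.81, -0.69 and -0.78. A further chromosome 1 run, from *H2AC25* to *H2BC26*, had 2 passing genes. For siRNA #8 over control siRNA they were at -0.02 (spot-to-spot SD 0.41) and -1.40 (0.34), so 1 of the 2 was not clearly lower. Differences between runs were not tested.

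Neighbours that share a promoter did not always keep together. The promoter windows of an H2A and an H2B gene overlapped in 11 pairs, and both genes passed in 10. Both were below 0 with siRNA #8 over control siRNA in 9 of 10 pairs, and the H2A gene had the lower ratio in 8 of 10. For siRNA #8 over siRNA #7 the H2A gene was the lower in 4 of 10, so this order was not kept. The pair *H2AC14* and *H2BC14* was the exception, at -1.23 and 0.25. The pair *H2AC6* and *H2BC4* also lay apart, at -1.56 and -0.20, while *H2AC11* and *H2BC11* were at -1.05 and -1.02. Genes with the octamer in the promoter had a median log2 ratio of -0.46 (22 genes) for siRNA #8 over control siRNA and those without it -0.70 (31 genes), and the classes differ in this motif, so the motif and the class cannot be told apart here. Genes with the H4 element had a median of -0.59 (14 genes) and those without it -0.56 (39 genes).

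Replication-independent and variant histones include genes whose products replace core histones outside S phase. The median of this list for siRNA #8 over control siRNA was closer to 0 than that of the 58 histone genes (-0.57). It was not closer to 0 than the median of the H2B genes (-0.30). Of 18 listed genes, 10 passed. Their median log2 ratio was -0.35 for siRNA #8 over control siRNA, -0.52 for siRNA #8 over siRNA #7 and 0.23 for siRNA #7 over control siRNA. With siRNA #8 over control siRNA 0 of 10 were 2-fold apart, against 3.03% lower and 1.95% higher over all genes. Over siRNA #7 it was also 0 of 10, against 3.37% and 2.27%. Among 10 genes a count of 0 is near these shares. *H3-3A*, which encodes H3.3, was at 494, 616 and 593 on the control siRNA, siRNA #7 and siRNA #8 arrays. *H3-3B*, which encodes the same protein, was at 180, 263 and 146 in the same order, lowest with siRNA #8. *H2AZ2* was at 162, 181 and 99.3, and *CENPA*, the centromeric H3, at 2.50, 1.79 and 1.46. *MACROH2A2*, a variant with a macro domain, was at 2.09, 5.30 and 3.46, the 1 gene of the list past 2-fold, with siRNA #7 over control siRNA. With siRNA #8 over control siRNA 7 of 10 were below 0, and with siRNA #8 over siRNA #7 10 of 10. No test compared the list with the replication-dependent genes.

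Factors that transcribe histone genes and process their mRNAs lay on both sides of 0. Of 24 listed genes, 20 passed, with a median log2 ratio of -0.05 for siRNA #8 over control siRNA and -0.02 for siRNA #7 over control siRNA, and 10 of 20 were below 0 in each. For siRNA #8 over siRNA #7 the median was -0.18, with 13 of 20 below 0. The median for siRNA #8 over control siRNA changed sign under another scaling, to 0.01. *SLBP*, the stem-loop binding protein, was at 44.3 (control siRNA), 37.0 (siRNA #7) and 21.9 (siRNA #8). It was the 1 gene of the 20 at least 2-fold lower with siRNA #8 than with control siRNA, against 3.03% of all genes. *POU2F1*, which binds the octamer, was at 4.06, 3.71 and 3.39, and *HINFP*, a regulator of H4 genes, at 1.99, 3.07 and 2.11. *NCBP2* of the cap binding complex was at 3.32, 1.39 and 2.78, lower with siRNA #7. *NPAT*, the cyclin E/CDK2 substrate that activates histone genes, had no passing probe, and neither did *CASP8AP2*, *LSM11* and *CPSF2*.

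Histone chaperones, which carry histones to DNA, had 28 of 29 listed genes passing and a median log2 ratio of -0.17 for siRNA #8 over control siRNA, -0.16 for siRNA #8 over siRNA #7 and 0.00 for siRNA #7 over control siRNA. At least 2-fold lower with siRNA #8 than with control siRNA were 2 of 28, near the 3.03% of all genes. *HJURP*, the chaperone of CENPA, was at 25.7, 19.5 and 10.6, and *DNAJC9*, a chaperone of H3 and H4, at 32.0, 35.5 and 14.0. For siRNA #8 over control siRNA 20 of 28 were below 0 and 8 above. *CHAF1A* and *CHAF1B* of CAF-1, which deposits H3 and H4 behind the replication fork, had log2 ratios of -0.65 and -0.85 for siRNA #8 over control siRNA. *RBBP4*, also of CAF-1, went the other way, at 0.52 (spot-to-spot SD 0.15). *NASP*, which holds soluble H3 and H4, was at -0.46.

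Most genes of S phase were also lower with siRNA #8 than with control siRNA. All 23 listed genes passed, and 21 of 23 were below 0 with siRNA #8 over control siRNA, against 49.2% of all genes, at a median log2 ratio of -0.62, and 5 of 23 were at least 2-fold lower, against 3.03%. These were *CDC6*, *CDC45*, *GINS2*, *PCNA* and *SLBP*, which apart from *SLBP* act in DNA replication. *PCNA*, the sliding clamp, was at 61.9, 57.7 and 29.6 on the control siRNA, siRNA #7 and siRNA #8 arrays, and *CDC45*, of the replicative helicase, at 29.8, 28.2 and 11.9. *CCNE1* and *CCNE2*, the E-type cyclins, were above 0, at 0.35 and 0.09. With siRNA #7 over control siRNA 16 of 23 were below 0, against 48.3% of all genes, at a median of -0.19. *CDC6* was the 1 gene of 23 at least 2-fold lower, against 1.72% of all genes. It was dim, at 0.632, 0.292 and 0.229, with a spot-to-spot SD of 0.40 with siRNA #7 and 0.41 with siRNA #8 over control siRNA. In the other direction, *CCNE2* (0.99) and *E2F1* (0.62) were at least 1.5-fold higher with siRNA #7. The part of the S phase genes in the levels of the histone genes was not tested.

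**Figure D4:**
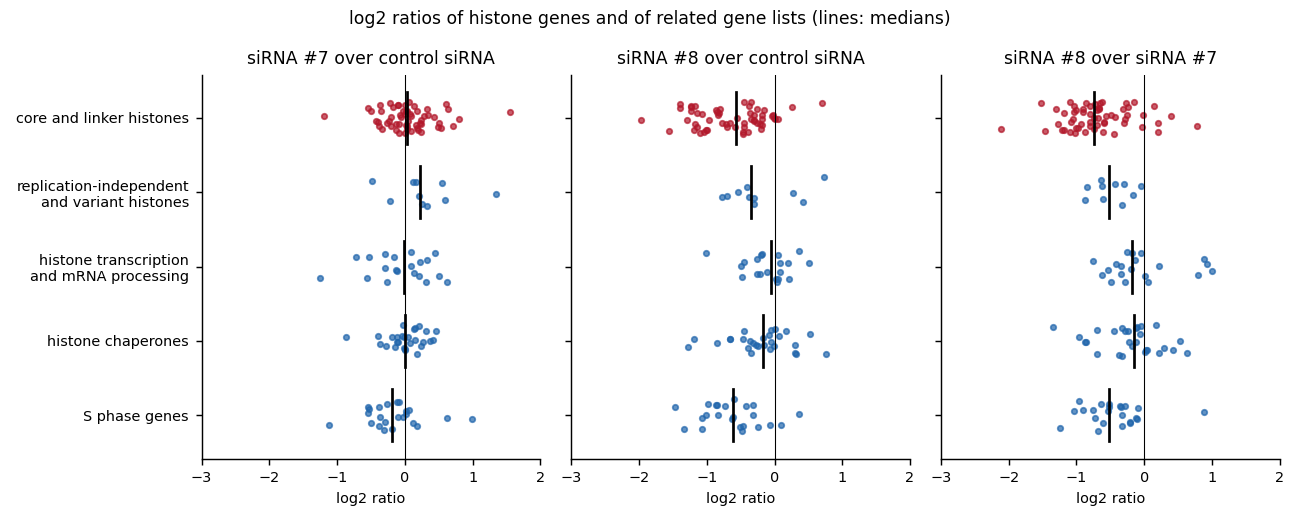
Log2 ratios of the core and linker histone genes (red) and of the genes of 4 related lists (blue), 1 panel per pair of arrays, with black lines at the medians and points spread vertically for clarity. For siRNA #8 over control siRNA the medians are -0.57 for the histone genes, -0.35 for variant histones, -0.05 for transcription and processing, -0.17 for chaperones and -0.62 for S phase genes.

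The control siRNA array was brighter than both siRNA arrays and had the most probes well above background. The 75th percentile of intensity was 52.8, 42.1 and 42.8 for control siRNA, siRNA #7 and siRNA #8, and 19066 to 20471 probes of 50599 were well above background. The 3 arrays lay on 1 slide and were scanned together. The probe named *HOXA5* had log2 ratios of -0.36 (spot-to-spot SD 0.25) and -0.23 (0.26) for siRNA #7 and siRNA #8 over control siRNA. Whether it lies in *HOXA5* short RNA is not known here, so it does not check the silencing. The epithelial markers *EPCAM*, *CDH1*, *KRT8*, *KRT18* and *CDX2* passed, while *KRT20* and *VIL1* were not well above background. Of the markers of other cell types, *PTPRC*, *CD3E*, *COL3A1*, *PECAM1* and *ALB* were not well above background on any array, and *COL1A1* passed at an intensity of at most 48.1.

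**Figure D5:**
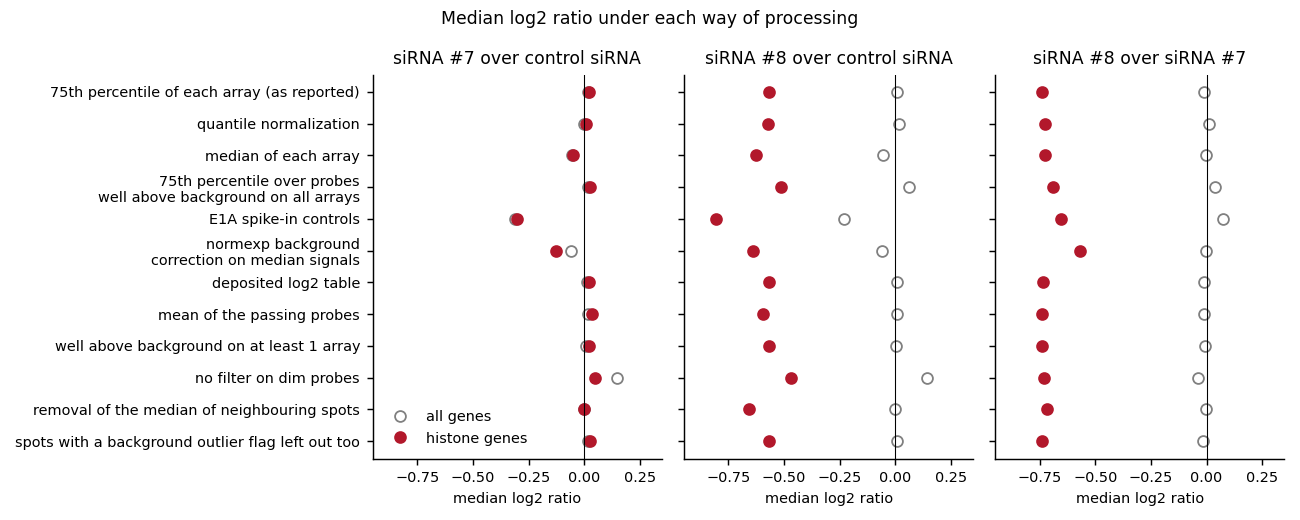
Median log2 ratio of the histone genes (red) and of all genes (open grey) under each way of processing, 1 panel per pair of arrays. The red points stay below 0 in both panels with siRNA #8, between -0.81 and -0.47 and between -0.74 and -0.57, and lie close to the grey points for siRNA #7 over control siRNA.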

How the data were processed

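Gene expression was measured in 3 cultures of HCT116 cells, 1 array per condition. The authors deposited spot intensities from Agilent Feature Extraction 11.5.1.1, background-subtracted and not scaled between arrays, and a log2 table that differs from the log2 intensities by the 75th percentile of each array and is centred on each probe's median. This table was an alternative.

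From the intensities, log2 levels minus the 75th percentile over all gene probes were obtained with numpy 2.4.6 and pandas 2.3.3 in Python 3.11.15. Spots with a feature outlier flag were left out. A probe passed if it was well above background on all 3 arrays and at or above the 20th percentile on at least 2, and a gene was read from its brightest passing probe. Symbols came from RefSeq (GRCh38.p14), while the array was annotated on an older build. For a bound, the dim array was given the lowest signal of any probe called well above its background. The spot-to-spot SD was pooled within 6 ranges of signal.

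The genes named were at least 2-fold apart in a pair of arrays, at least 1.5-fold with both siRNAs, brightest of a class, *H1-10*, genes whose probes had opposite signs, and genes with a bound of at least 1.5-fold. *H1-2*, *H1-3*, *H3C6*, *H2AC19*, *H2BC4*, *H1-7*, and from the lists *H3-3A*, *H3-3B*, *H2AZ2*, *CENPA*, *CHAF1A*, *CHAF1B*, *RBBP4* and *NASP*, were added for a class, a pair or a role after their values were seen. The values of 1 gene that the rule names are not reported here. The histone genes, the lists and the tests were chosen with earlier results of these data known. Alternatives were other scalings, background correction, filters, probe rules, removal of neighbouring spots, a 1.5-fold threshold, and limma 3.58.1 in R 4.3.3, tested on simulated data.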

Additional observations from a re-analysis of the deposited data

How the results depend on the processing

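For siRNA #8 the histone median kept its sign under all 11 alternative settings, from -0.81 to -0.47 over control siRNA and from -0.74 to -0.57 over siRNA #7. Relative to the median of all genes it lay between -0.65 and -0.57 and between -0.74 and -0.57. Scalings that shift a whole array, such as its median or the spike-in controls, cannot change this difference. It was -0.58 and -0.73 with each of these, so they do not check it. For siRNA #7 over control siRNA the median changed sign with the median of each array (-0.049), spike-in controls (-0.30), normexp (-0.12) and removal of the neighbouring spots (-0.00144), and the cause was not tested. Spike-in scaling shifted all passing probes by -0.33 with siRNA #7 and -0.24 with siRNA #8, and gave a median of -0.81 for siRNA #8 over control siRNA. Normexp gave -0.57 for siRNA #8 over siRNA #7. Without the filter on dim probes, the count past 2-fold with siRNA #7 was 4 of 73. Of these 3 were higher and 1 lower, against 5.58% and 3.37% of all genes. With removal of the neighbouring spots it was 1, against 1.68% higher and 1.49% lower. At 1.5-fold the count with siRNA #7 was 6 of 58, with 5 higher and 1 lower, against 914 and 833 of all 12031 genes. With siRNA #8 over control siRNA it was 29, with 1 higher and 28 lower, against 937 and 1234. Over siRNA #7 it was 41, with 1 higher and 40 lower, against 1067 and 1397. The count past 2-fold for siRNA #8 over siRNA #7, all lower, was 10 with spike-in controls and 8 with normexp. The shares of all genes 2-fold lower were then 2.56% and 0.939%. Under 6 scalings and corrections 49 of 58 genes were below 0 for siRNA #8 over control siRNA in each, and 8 were 2-fold lower in each: *H1-4*, *H2AC6*, *H2AC15*, *H3C2*, *H3C4*, *H4C1*, *H4C2* and *H4C8*. The second probes of *H2AC6* (-0.86) and *H4C1* (-0.52) were not past 2-fold. Of 990 alternative values of named genes, 40 had another sign, none for a ratio past 2-fold. The choice to leave out spots with a feature flag alone was made after seeing the data, and leaving out spots with a background flag too gave 17 genes past 2-fold with siRNA #8 over either array. Normexp was run on median signals, as the files hold no mean signal. With both siRNA arrays as 1 group against 1 control array, limma counts any difference between the siRNAs as spread, so it cannot show one seen with siRNA #8 alone. It called 0 of 67 histone probes at an adjusted p of 0.05, and 1 (*H2AC11*) had an unadjusted p under 0.05; over all 18121 probes limma called 2, and 3.71% had an unadjusted p under 0.05. No paired analysis was possible because there was only 1 array for each condition. For the dimmest genes, such as *H2AC25* and *H2BC21*, the spot-to-spot SD of 0.41 limits what a ratio can show.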
